A study of Homo sapiens with 8 samples.

Results

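Genes of epithelial junctions and of apical-basal polarity were followed in SCC13 cells, an established line from a human squamous cell carcinoma of the skin, after knockdown of Polycomb proteins. The set was a list of 50 genes, chosen with earlier results of these data known. Shares of members set beside shares of all genes below are therefore descriptions and not independent evidence. The members of the set were those with an annotated probe set on the array, taking the brightest where a gene had several. This rule gave 36 of the 50 genes, among 14884 genes measured in all. The members were 14 of 15 tight junction genes, EPCAM alone of 5 genes of the adherens junction class, 11 of 12 desmosome genes, 4 of 5 polarity genes, ST14 alone of 4 surface protease and inhibitor genes, and all 5 epithelial regulators. The 4 listed connexins of gap junctions (GJA1, GJB2, GJB5 and GJB6) had none, nor did F11R, CDH1, CDH3, CTNNA1, CTNND1, PERP, RAB25, PRSS8, SPINT1 and SPINT2, so these 14 genes were not analysed here.

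The cells carried a short hairpin against EZH2 (shEZH2), against RING1B (shRING1B), against BMI1 (shBMI1) or against GFP (shGFP), a sequence foreign to human cells that serves as the control. Total RNA of each group was hybridised to 2 whole-transcript arrays. EZH2 is the methyltransferase of Polycomb repressive complex 2, and RING1B (gene RNF2) and BMI1 are core subunits of Polycomb repressive complex 1. All groups are labelled SCC13 and carry a hairpin, the labels give 1 hairpin name for each target, and nothing in the labels ties the paired arrays of a group to separate cultures. The spread behind the p-values is that of the arrays alone and may be technical. The titles of both shEZH2 arrays begin with SCCL3 and those of the other 6 with SCC13, while the field for the cell line gives SCC13 throughout. Any difference between SCCL3 and SCC13 material and the effect of the EZH2 hairpin cannot be told apart.

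Tight junctions seal the space between neighbouring epithelial cells. Claudins, occludin and the MARVEL-domain proteins span the membrane there, and zonula occludens proteins and cingulin tie them to actin. Desmosomes join the keratin networks of neighbouring keratinocytes through the desmoglein and desmocollin cadherins, plakoglobin, plakophilins and desmoplakin. The Par, Crumbs and Scribble groups of polarity proteins set the apical and basolateral domains. Polycomb complexes act on chromatin, often at promoters rich in CpG dinucleotides.

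The promoters of the 4 members with the largest called differences between shEZH2 and shBMI1 are shown because they differ in CpG content. Each sequence is the 250 bases before the annotated start, 5′ to 3′ on the gene's strand, from RefSeq on build GRCh38.p14. Capitals mark CAGGTG, which is CACCTG read on the other strand, the E-box bound by the repressors of the SNAI and ZEB families. The regions are chr3:190322447-190322696 (minus strand) for CLDN1, chr5:69492297-69492546 (plus strand) for OCLN, chr17:7263214-7263463 (minus strand) for CLDN7 and chr18:31447491-31447740 (plus strand) for DSG3.
CLDN1: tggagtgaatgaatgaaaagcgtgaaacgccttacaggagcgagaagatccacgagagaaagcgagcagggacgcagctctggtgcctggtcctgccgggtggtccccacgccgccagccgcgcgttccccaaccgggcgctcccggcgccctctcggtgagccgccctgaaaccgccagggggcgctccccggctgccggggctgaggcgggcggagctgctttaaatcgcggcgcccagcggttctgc
OCLN: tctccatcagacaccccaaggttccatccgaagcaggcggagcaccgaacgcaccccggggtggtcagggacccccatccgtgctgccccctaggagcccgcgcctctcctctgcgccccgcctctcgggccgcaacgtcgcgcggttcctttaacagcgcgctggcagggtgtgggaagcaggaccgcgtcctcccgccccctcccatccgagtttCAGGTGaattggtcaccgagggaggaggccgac
CLDN7: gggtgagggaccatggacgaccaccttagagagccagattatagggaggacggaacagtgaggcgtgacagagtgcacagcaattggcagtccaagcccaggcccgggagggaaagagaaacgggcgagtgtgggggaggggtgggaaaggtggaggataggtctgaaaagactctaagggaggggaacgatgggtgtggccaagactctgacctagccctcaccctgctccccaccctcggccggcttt
DSG3: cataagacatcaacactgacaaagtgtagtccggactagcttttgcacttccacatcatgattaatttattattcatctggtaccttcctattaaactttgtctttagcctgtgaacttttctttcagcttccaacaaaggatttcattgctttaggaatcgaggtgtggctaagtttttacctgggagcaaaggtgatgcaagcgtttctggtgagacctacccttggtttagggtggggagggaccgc

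The CLDN1 window held 28 CpG dinucleotides and the OCLN window 24, against 9 in CLDN7 and 4 in DSG3. The ratio of observed to expected CpG was 0.948 for CLDN1, 0.825 for OCLN, 0.423 for CLDN7 and 0.35 for DSG3, with a median of 0.71 over the 22 members found in the RefSeq table and 0.751 over 10749 tested genes found there. Of these windows, only that of OCLN held the CACCTG letters on either strand, with the first base 33 bases before the start. CACCTG was present in 7 of the 22 member promoters (31.8%), in 16.9% of the tested genes' promoters and in 17.5% of all 27305 promoters of the table. AACCGGTT, a palindrome that matches the consensus of the grainyhead-like factors, was in 0 of the 22 and in 0.106% of all promoters. These matches describe letters and were not tested as binding sites.

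The EZH2 transcript itself checked one label. It read 8.95 and 9.03 log2 units on the shEZH2 arrays, against 9.83 and 9.97 on the shGFP arrays, and fell by 0.91 ± 0.12 log2 units (SE, limma adjusted p = 0.0183), with an adjusted p of 0.0864 to 0.179 when any 1 of these 4 arrays was left out. BMI1 and RNF2 had no annotated probe set and were not analysed here. Arrays of one hairpin correlated at 0.9945 to 0.9959 over all genes, and shEZH2 arrays correlated with the other arrays at 0.992 to 0.993. Arrays of different hairpins among shRING1B, shBMI1 and shGFP correlated at 0.9931 to 0.9959, a range that overlaps that of arrays of one hairpin. Of the 11 keratinocyte markers listed, 5 were measured (KRT5, KRT14, KRT15, KRT16 and SFN) and 0 were called in any comparison. Over shGFP, 0 of the 5 were positive with shEZH2, where 48.1% of all genes were, 0 with shBMI1 and 1 with shRING1B. The largest fall with shEZH2 was that of KRT14, at -0.57 ± 0.13 (limma adjusted p = 0.0999), with 9.08 and 9.13 against 9.61 and 9.72 on the shGFP arrays. Their array means were 8.77 to 8.79 with shEZH2, 8.78 to 8.97 with shRING1B, 8.80 to 9.06 with shBMI1 and 9.01 to 9.10 with shGFP.

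Some markers of other cell types were higher with shEZH2. Of 8 fibroblast markers, 2 were measured (LUM and DCN), and DCN, which encodes decorin, rose by 0.93 ± 0.10 over shGFP (adjusted p = 0.0109) while LUM was at 0.89 (adjusted p = 0.120). The mean of the 2 was 6.39 to 6.60 on shEZH2 arrays, 5.86 to 5.93 on shRING1B arrays, 5.86 to 6.04 on shBMI1 arrays and 5.44 to 5.72 on shGFP arrays. MLANA, 1 of 6 measured melanocyte markers of 7 listed, rose by 0.64 ± 0.11 over shGFP (adjusted p = 0.0460), with 4.80 and 4.85 on shEZH2 arrays, against 4.18 and 4.19 on shGFP arrays. These levels are among the dimmest 30% of genes. Of the 6, 3 were positive over shGFP, where 48.1% of all genes were. SOX10 was at 0.20 and MITF at 0.00, while PMEL was at -0.15 and TYR and TYRP1 were each at -0.01. The mean of the 6 was 5.36 to 5.43 on shEZH2 arrays, 5.28 to 5.39 on shRING1B arrays, 5.23 to 5.35 on shBMI1 arrays and 5.27 to 5.30 on shGFP arrays. Neither DCN nor MLANA was called with any 1 of the 4 arrays left out, and MLANA passed in 4 of 8 alternatives that kept them. The fibroblast collagen genes listed (COL1A1, COL1A2 and COL3A1) were not analysed here. None of the 4 endothelial or 3 leukocyte markers measured was called. The part of these markers in the results below was not tested, and fewer cells of a type and less RNA per cell cannot be told apart in such bulk samples.

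The first comparison asked how the junction genes differed between the EZH2 and the BMI1 hairpin. With shEZH2, 3 tight junction genes (CLDN1, CLDN7 and OCLN), the desmosomal cadherin gene DSG3 and the membrane protease gene ST14 were higher than with shBMI1, by 1.45-fold to 3.26-fold. These 5 of 36 members passed an adjusted p of 0.05 in limma, all in the direction of higher with shEZH2, and 0 passed as lower. Over all genes, 0.974% passed (103 higher, 0.692%, and 42 lower, 0.282%), and with each array centred on its median the split was 87 higher and 67 lower. The median difference of the members was 0.19 log2 units, against -0.01 over all genes, and 30 of the 36 differences were positive, against 48.9% of all genes. Some of the smaller differences changed sign in an alternative, in both directions, so the count of 30 depends on the settings. The member median was 0.13 to 0.28 over the alternatives that kept all arrays and 0.19 to 0.21 without 1 array. In 20 members both shEZH2 arrays lay above both shBMI1 arrays, against 22.9% of all genes, and in 1 both lay below, against 24.1%. At an unadjusted p of 0.05, 16 members passed, against 15.1% of all genes. The 5 calls became 0 without the first shEZH2 array, 1 without the second shEZH2 array, 2 without the first shBMI1 array and 3 without the second shBMI1 array.

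CLDN1, a claudin of the epidermal barrier, read 7.80 and 7.95 log2 units with shEZH2, 6.81 and 7.13 with shRING1B, 5.92 and 6.43 with shBMI1, and 6.51 and 6.42 with shGFP. Both shEZH2 arrays lay above all 6 others, both shRING1B arrays lay above the shBMI1 and shGFP arrays, and the shBMI1 and shGFP arrays overlapped. CLDN1 rose 3.26-fold in shEZH2 over shBMI1 cells (1.70 ± 0.17 log2 units, SE, adjusted p = 0.00768). Over shGFP it rose 2.66-fold (1.41 ± 0.17, adjusted p = 0.0159). CLDN16, its neighbour on chromosome 3 and a claudin known from magnesium transport in the kidney, was among the dimmest 30% of genes and read 4.77 and 5.07 with shEZH2, 4.71 and 4.74 with shRING1B, 4.72 and 4.74 with shBMI1, and 4.78 and 4.54 with shGFP. Its shEZH2 and shGFP arrays overlapped (0.26, adjusted p = 0.340).

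CLDN7, a claudin found along the lateral membrane of many epithelia, read 8.83 and 8.83 with shEZH2, 8.07 and 7.68 with shRING1B, 7.41 and 7.66 with shBMI1, and 7.84 and 7.70 with shGFP. The shEZH2 arrays were the highest, and both shBMI1 arrays lay below the rest. CLDN7 rose 2.45-fold in shEZH2 over shBMI1 cells (1.29 ± 0.14, adjusted p = 0.00845), 2.08-fold over shGFP cells (1.06 ± 0.14, adjusted p = 0.0222) and 1.93-fold over shRING1B cells (0.95 ± 0.14, adjusted p = 0.0336).

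OCLN encodes occludin, the MARVEL-domain protein of tight junction strands. It read 7.31 and 7.19 with shEZH2, 6.99 and 6.81 with shRING1B, 5.99 and 6.03 with shBMI1, and 6.33 and 6.43 with shGFP. The 4 groups did not overlap anywhere, in the order shEZH2, shRING1B, shGFP, shBMI1 from high to low. OCLN rose 2.36-fold in shEZH2 over shBMI1 cells (1.24 ± 0.10, adjusted p = 0.00325) and 1.83-fold over shGFP cells (0.87 ± 0.10, adjusted p = 0.0109). The neighbouring steps of that order did not pass: shEZH2 minus shRING1B was 0.34 (unadjusted 95% interval 0.12 to 0.57, adjusted p = 0.167), shRING1B minus shGFP 0.52 (0.30 to 0.75, adjusted p = 0.231) and shBMI1 minus shGFP -0.37 ± 0.10 (adjusted p = 0.664). OCLN has a pseudogene copy, OCLNP1, on the same chromosome, and whether the probe set also measures it was not tested.

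**Figure D1:**
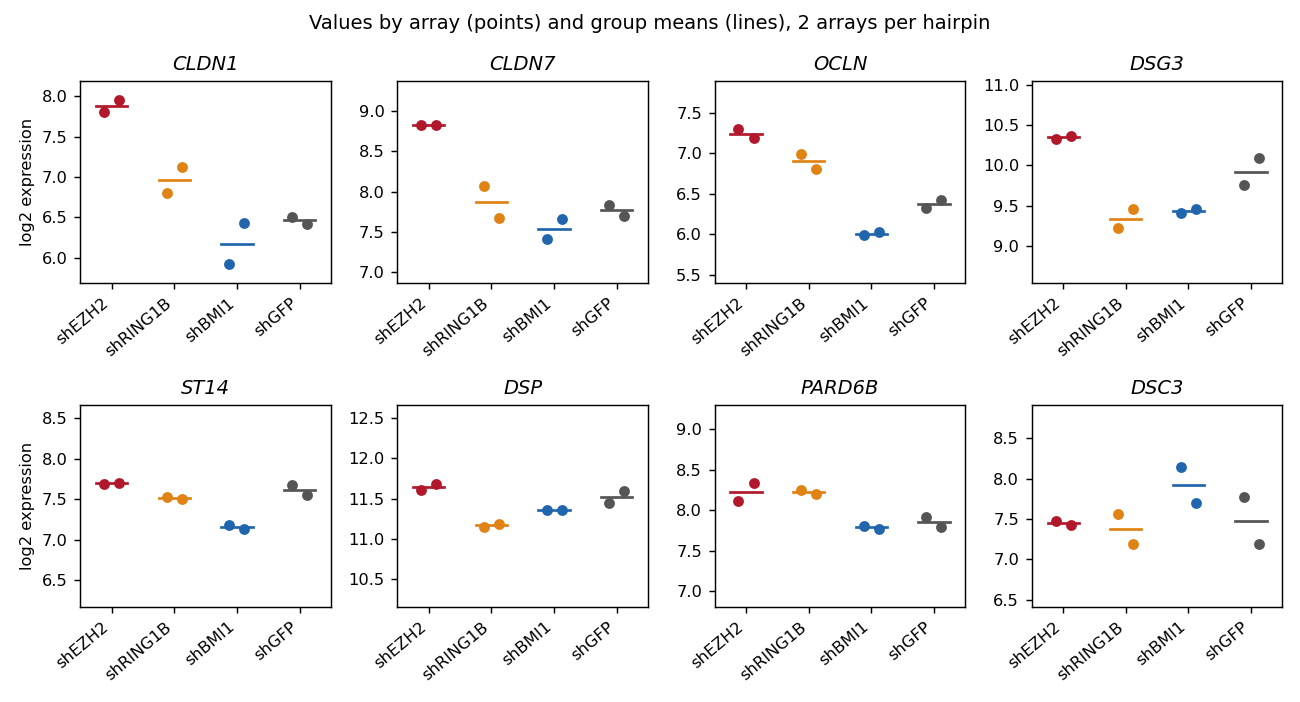
Log2 expression on each of the 8 arrays for CLDN1, CLDN7, OCLN, DSG3, ST14, DSP, PARD6B and DSC3, by hairpin in the order shEZH2, shRING1B, shBMI1 and shGFP; points are arrays and lines are group means. In CLDN1, CLDN7, OCLN and DSG3 both shEZH2 arrays lie above the other 6, while DSC3 is highest with shBMI1.

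The remaining 11 tight junction genes did not pass between shEZH2 and shBMI1. Over the 14 measured, 11 differences were positive, against 48.9% of all genes, and 3 were negative, with a median of 0.19. In 8 of the 14 both shEZH2 arrays lay above both shBMI1 arrays, against 22.9% of all genes. In 0 both lay below, against 24.1%. Of 20 other tight junction genes measured, from the wider list given below, 9 were positive and 11 negative (median -0.03). In 3 of these 20 both shEZH2 arrays lay above both shBMI1 arrays, and in 5 both lay below. TJP3, a zonula occludens scaffold, read 6.86 and 7.14 with shEZH2 and 6.54 and 6.69 with shBMI1 (0.38, adjusted p = 0.182). CLDN4 read 6.56 and 6.52 with shEZH2 and 5.87 and 6.38 with shBMI1 (0.41, interval 0.04 to 0.78, adjusted p = 0.282). The brightest members of the class were TJP1, the zonula occludens scaffold ZO-1, at 10.43 and 10.39 with shEZH2, against 10.30 and 10.18 with shBMI1, and MARVELD2 (tricellulin, the protein of three-cell contacts) at 9.10 and 9.04 with shEZH2, against 9.05 and 8.72 with shBMI1. Their differences were small beside those of CLDN1, CLDN7 and OCLN.

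EPCAM, a cell adhesion protein that binds claudins in epithelia, read 9.52 and 9.45 with shEZH2, 9.46 and 9.31 with shRING1B, 9.05 and 8.83 with shBMI1, and 9.40 and 9.06 with shGFP. The shBMI1 arrays were the lowest, and the shEZH2 and shRING1B ranges overlapped. EPCAM did not pass between shEZH2 and shBMI1 (0.55, adjusted p = 0.113).

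Among desmosome genes only DSG3, the desmoglein targeted by antibodies in pemphigus vulgaris, passed. It read 10.33 and 10.37 with shEZH2, 9.22 and 9.46 with shRING1B, 9.41 and 9.46 with shBMI1, and 9.76 and 10.09 with shGFP. The shEZH2 arrays were the highest and the shRING1B and shBMI1 arrays lay below both shGFP arrays. DSG3 rose 1.88-fold in shEZH2 over shBMI1 cells (0.91 ± 0.13, adjusted p = 0.0220) and 2.01-fold over shRING1B cells (1.01 ± 0.13, adjusted p = 0.0187). Against shGFP it passed with none of the hairpins: 0.43 ± 0.13 with shEZH2 (adjusted p = 0.176), -0.58 ± 0.13 with shRING1B (adjusted p = 0.310) and -0.48 ± 0.13 with shBMI1 (adjusted p = 0.664).

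The other desmosome genes did not pass in any comparison. JUP, which encodes plakoglobin of desmosomes and adherens junctions, read 10.70 and 10.70 with shEZH2, 10.43 and 10.35 with shRING1B, 10.003 and 10.28 with shBMI1, and 10.31 and 10.50 with shGFP. DSC2, a desmocollin, read 9.41 and 9.47 with shEZH2, 9.11 and 9.22 with shRING1B, 8.84 and 8.94 with shBMI1, and 9.04 and 9.34 with shGFP. In both genes the shEZH2 arrays were the highest, and shEZH2 minus shBMI1 was 0.56 for JUP (interval 0.29 to 0.82, adjusted p = 0.0747) and 0.55 for DSC2 (0.28 to 0.82, adjusted p = 0.0792). Both passed when the dimmest 30% of genes were left out of the fit and the adjustment (adjusted p = 0.0292 for JUP and 0.0319 for DSC2). They also passed with a trended robust variance or among protein-coding genes alone.

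DSC3, the desmocollin of basal keratinocytes, did not pass either, and its value was negative. It read 7.47 and 7.43 with shEZH2, 7.56 and 7.19 with shRING1B, 8.14 and 7.70 with shBMI1, and 7.77 and 7.19 with shGFP. The shBMI1 arrays lay above both shEZH2 arrays but overlapped shGFP, and shEZH2 minus shBMI1 was -0.47 ± 0.22 (interval -0.97 to 0.03, adjusted p = 0.364). DSP, the plaque protein that binds keratin, read 11.61 and 11.68 with shEZH2, 11.14 and 11.19 with shRING1B, 11.35 and 11.36 with shBMI1, and 11.45 and 11.60 with shGFP, and was lowest with shRING1B. DSG2 was bright in all groups, with 11.86 and 11.77 with shEZH2, against 11.79 and 11.77 with shGFP. Over the 11 desmosome genes 9 differences between shEZH2 and shBMI1 were positive, against 48.9% of all genes, with a median of 0.10.

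The 4 polarity genes were all positive between shEZH2 and shBMI1, against 48.9% of all genes, with a median of 0.38 and 0 calls. At an unadjusted p of 0.05 in limma 3 passed, against 15.1% of all genes. The 8 other polarity genes measured, from the wider list given below, had 4 positive and 4 negative values (median -0.01). CRB3, the Crumbs protein of the apical membrane, read 6.86 and 7.13 with shEZH2, 6.85 and 6.999 with shRING1B, 6.45 and 6.57 with shBMI1, and 6.79 and 6.91 with shGFP. The shBMI1 arrays were below the other 6, and shEZH2 minus shBMI1 was 0.49 (interval 0.22 to 0.75, adjusted p = 0.105). PARD6B, an adaptor of the Par complex, read 8.12 and 8.34 with shEZH2, 8.26 and 8.20 with shRING1B, 7.81 and 7.77 with shBMI1, and 7.92 and 7.80 with shGFP. The shEZH2 and shRING1B arrays lay above the shBMI1 and shGFP arrays, at 0.37 over shGFP with each hairpin (adjusted p = 0.142 with shEZH2 and 0.382 with shRING1B). LLGL2, a basolateral Scribble-group protein, was at 0.33 between shEZH2 and shBMI1 (adjusted p = 0.137), and PARD3, the scaffold of the Par complex, at 0.13 (interval -0.16 to 0.42), which became -0.03 without the second shBMI1 array.

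ST14 encodes matriptase, a transmembrane serine protease of the epidermis. It read 7.69 and 7.70 with shEZH2, 7.53 and 7.51 with shRING1B, 7.18 and 7.14 with shBMI1, and 7.68 and 7.56 with shGFP. The shBMI1 arrays stood below the other 6, which lay within a narrow range. ST14 was 1.45-fold higher in shEZH2 than in shBMI1 cells (0.54 ± 0.08, adjusted p = 0.0310), but it lost the call when only the 4 arrays compared were fitted (adjusted p = 0.0951). Against shGFP it was at 0.08 with shEZH2 (adjusted p = 0.697), -0.10 with shRING1B and -0.46 ± 0.08 with shBMI1 (adjusted p = 0.397).

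None of the 5 epithelial regulators passed in any comparison. GRHL1 and GRHL2 are grainyhead-like transcription factors, ESRP1 and ESRP2 set epithelial splicing, and OVOL1 is a zinc finger repressor of mesenchymal genes. ESRP1 read 10.65 and 10.61 with shEZH2, 10.38 and 10.46 with shRING1B, 10.50 and 10.49 with shBMI1, and 10.53 and 10.62 with shGFP. GRHL2 read 10.20 and 10.27 with shEZH2, 10.17 and 10.29 with shRING1B, 10.11 and 10.27 with shBMI1, and 10.28 and 10.38 with shGFP. Both shEZH2 and both shBMI1 values of GRHL2 lay just below those of shGFP, and shEZH2 minus shBMI1 was 0.05 (interval -0.18 to 0.27), with -0.03 without the first shBMI1 array and -0.01 with each array centred on its median. OVOL1 was at 0.47 between shEZH2 and shBMI1 (adjusted p = 0.128) and at -0.30 between shBMI1 and shGFP (adjusted p = 0.884). A second, dimmer OVOL1 probe set gave 0.29 and -0.38 for these, and against shGFP it had the opposite sign with shEZH2 (-0.09, where the brighter one had 0.17) and with shRING1B (-0.18, where the brighter one had 0.13).

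**Figure D2:**
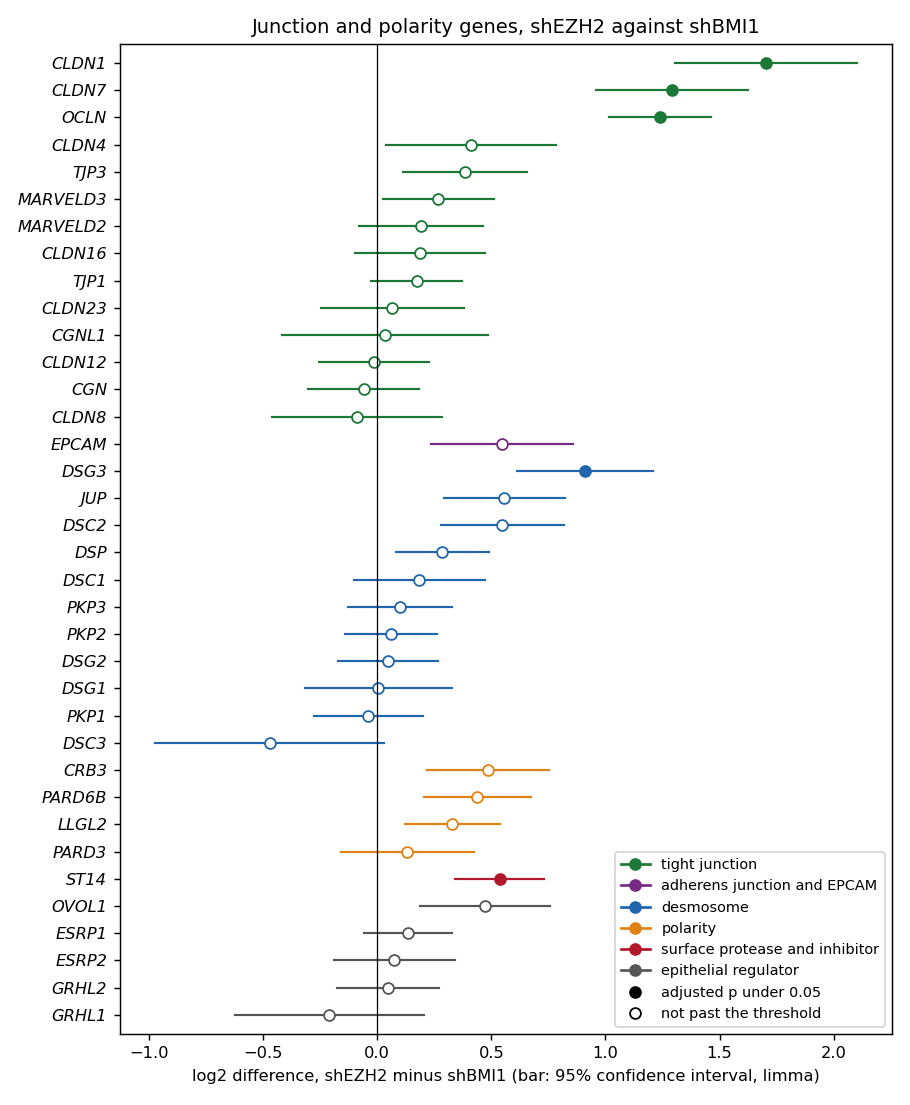
Log2 difference of shEZH2 minus shBMI1 for the 36 genes by class, with unadjusted 95% intervals from limma; filled points have an adjusted p under 0.05 over all genes. The 5 filled points are CLDN1, CLDN7, OCLN, DSG3 and ST14, all right of 0, and DSC3 is the lowest point at -0.47.

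The second comparison set shEZH2 against shGFP. CLDN1, CLDN7 and OCLN rose, by 1.83-fold to 2.66-fold, and the 33 other members did not pass. The 3 calls of 36 were all tight junction genes and all higher, where 0.732% of all genes passed (0.558% higher and 0.175% lower). At an unadjusted p of 0.05, 7 members passed, against 16.2% of all genes. The median difference was 0.09 over the members and -0.01 over all genes, and 26 members had positive values, against 48.1% of all genes. In all, 17 members had both shEZH2 arrays above both shGFP arrays, against 23.1% of all genes, while 4 had both below, against 27.0%. By class the median was 0.12 for tight junction, 0.06 for desmosome, 0.17 for polarity and 0.00 for regulator genes, and differences between classes were not tested. The count of 3 became 0 without any 1 of the 4 arrays (adjusted p from 0.0667 to 0.181 for the 3 genes), although each stayed positive.

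The third comparison set shBMI1 against shGFP. No single gene passed, among the members or among all genes (0.0% called in limma). At an unadjusted p of 0.05, 7 members and 5.58% of all genes passed. The members were lower in 28 of 36 cases, against 53.4% of all genes, with a median of -0.14 against -0.01 over all genes. In 19 members both shBMI1 arrays lay below both shGFP arrays, against 17.8% of all genes, and in 1 member both lay above, against 14.0%. The class medians were -0.06 for tight junction, -0.16 for desmosome, -0.10 for polarity and -0.14 for regulator genes. MARVELD3, a MARVEL-domain protein of tight junctions, read 8.48 and 8.63 with shBMI1, against 8.85 and 9.05 with shGFP, and did not overlap (-0.40, adjusted p = 0.664). CRB3 was at -0.35 (adjusted p = 0.784), DSC2 at -0.30 (0.877), EPCAM at -0.29 (0.903) and CLDN1 at -0.29 (0.950), and DSC3 was the most positive member at 0.44 ± 0.22 (0.909). Single arrays moved several of these values: leaving out 1 array gave -0.54 to -0.04 for CLDN1, -0.46 to -0.12 for EPCAM, -0.45 to -0.14 for DSC2, -0.41 to -0.28 for CRB3, and 0.15 to 0.73 for DSC3.

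The shRING1B arrays gave the fourth comparison, again against the same shGFP arrays. Here too 0 members and 0.0% of all genes passed in limma, with 5 members and 8.6% of all genes at an unadjusted p of 0.05. OCLN at 0.52, CLDN1 at 0.50 ± 0.17 (adjusted p = 0.464) and PARD6B at 0.37 were the most positive members. DSG3 at -0.58 and DSP at -0.36 ± 0.09 (adjusted p = 0.346) were the most negative, and both passed with a trended robust variance (adjusted p = 0.0417 for DSG3 and 0.035 for DSP). The members were split into 17 positive and 19 negative values, with a median of -0.01, where 49.2% of all genes were positive. In 8 members both shRING1B arrays lay above both shGFP arrays, against 18.2% of all genes, and in 7 both lay below, against 19.1%. Of the 11 desmosome genes 10 were negative (median -0.03), and the 4 polarity genes were positive (median 0.15). Apart from DSG3 and DSP, the negative desmosome values were -0.15 or nearer 0, and most of these turned positive in an alternative. The positive one turned negative in an alternative, so the count of 10 does not show a fall of the whole class.

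**Figure D3:**
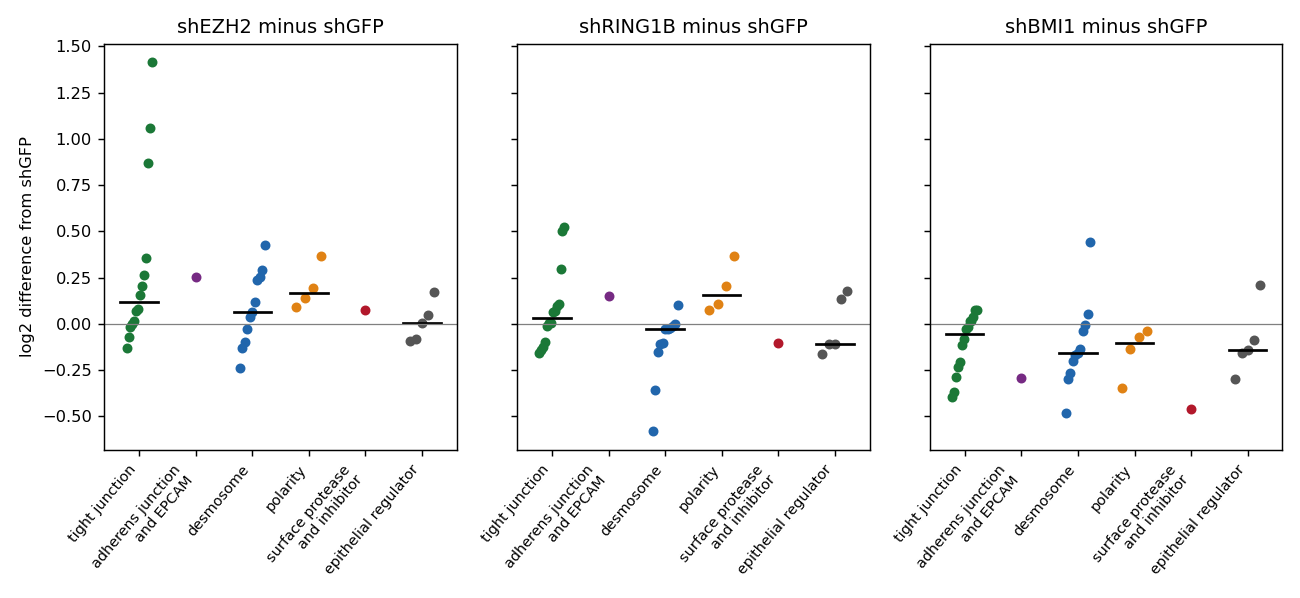
Log2 difference from shGFP for each member with shEZH2, shRING1B and shBMI1, by class; points are genes and short lines are class medians. The tight junction points of shEZH2 reach up to 1.41 (CLDN1), while 9 of the 11 desmosome points of shBMI1 lie below 0; the hairpins share the same 2 shGFP arrays.

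Between shEZH2 and shRING1B cells, DSG3 and CLDN7 were higher with shEZH2, 2 of 36 members where 0.578% of all genes passed (0.356% higher and 0.222% lower), and neither was called without any 1 of the 4 arrays. At an unadjusted p of 0.05, 9 members passed, against 15.6% of all genes. Of the 36 differences 27 were positive, against 48.5% of all genes, and 17 members had both shEZH2 arrays above both shRING1B arrays, against 22.6%, with 1 below, against 25.6%. CLDN1 did not pass there (0.91 ± 0.17, interval 0.51 to 1.31, adjusted p = 0.0744), nor did TJP3 (0.51, adjusted p = 0.110) or DSP (0.48, adjusted p = 0.0716). PARD6B was level between these hairpins, with an interval of -0.23 to 0.23. Between the 2 hairpins of Polycomb repressive complex 1, shRING1B minus shBMI1, 0 members passed in limma where 0.0134% of all genes did, with 13 members and 9.18% of all genes at an unadjusted p of 0.05. Of the 36 differences 24 were positive, against 51.2% of all genes, with 16 members wholly above, against 19.3%, and 4 wholly below, against 17.1%. OCLN came nearest, at 0.89 ± 0.10 (interval 0.67 to 1.12, adjusted p = 0.0770), and it passed in 3 alternatives: among protein-coding genes, with a trended robust variance, and without the dimmest 30% of genes. CLDN1 was at 0.79 (adjusted p = 0.245).

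Across the 4 group means, 21 of the 36 genes (58.3%) were highest with shEZH2, against 29.4% of all genes. Likewise 21 (58.3%) were lowest with shBMI1, against 23.2% of all genes. Both held for 13 members (36.1%) and for 10.2% of all genes. The list was chosen with earlier results of these data known, so these shares describe it and are not independent evidence. As the median over members of the deviation from each gene's 8-array mean, the shEZH2 arrays stood at 0.12 and 0.11, the shRING1B arrays at 0.03 and -0.02, the shBMI1 arrays at -0.13 and -0.08, and the shGFP arrays at -0.02 and 0.01. The arrays of the shEZH2 and shBMI1 groups thus lay outside the range of the other 4 on opposite sides. In all 6 comparisons together 5 members were called at least once and 31 were not, and 6 members (CLDN8, CLDN16, CGNL1, DSG1, DSC1 and GRHL1) were among the dimmest 30% of genes, where a difference is hard to detect on an array.

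**Figure D4:**
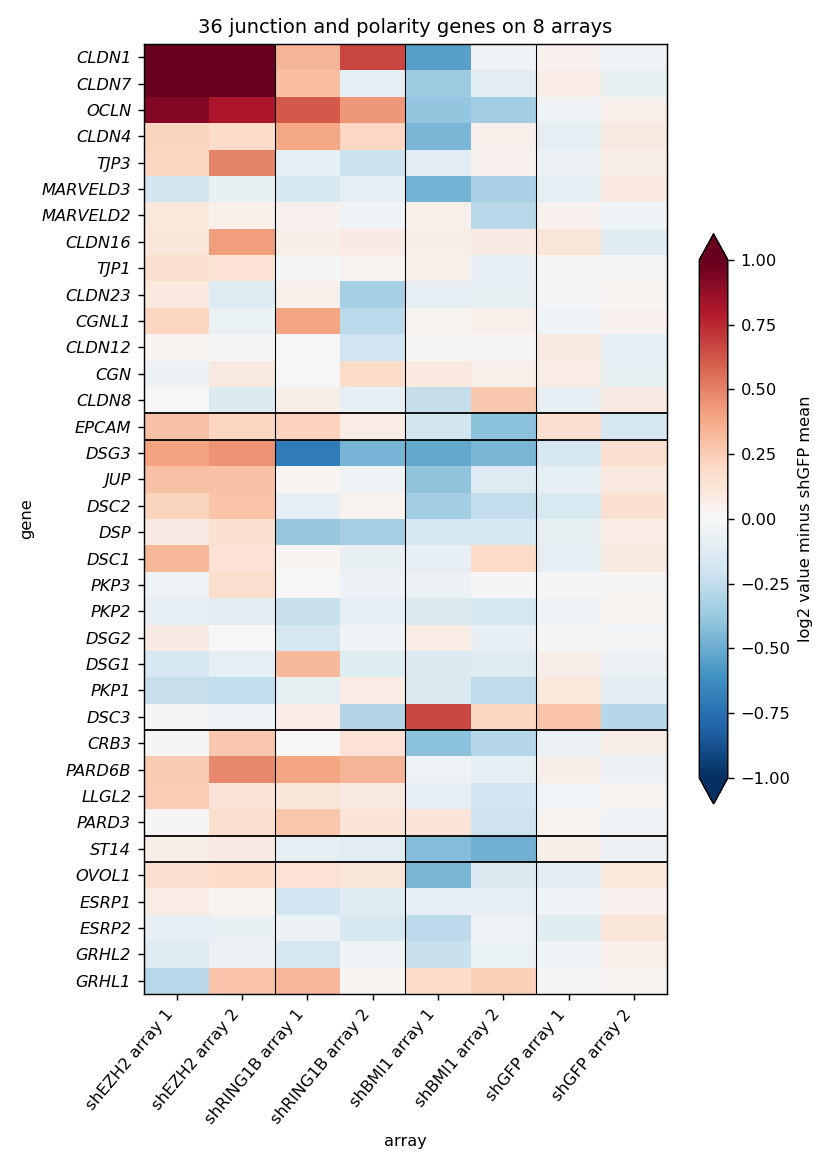
Log2 expression of the 36 genes on the 8 arrays, as the difference from each gene's shGFP mean, with arrays in columns by hairpin and genes in rows by class; the colour scale ends at -1 and 1. CLDN1 and CLDN7 lie past the upper end of the scale on both shEZH2 arrays, and most rows are below 0 on the shBMI1 arrays.

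A wider list of 75 other genes of the same structures, of epithelial regulators and of their mesenchymal repressors had 53 measured genes. Of these, 1 was called in any comparison. EHF, an epithelial ETS transcription factor, read 8.86 and 8.86 with shEZH2, 8.76 and 8.60 with shRING1B, 8.03 and 8.28 with shBMI1, and 8.32 and 8.34 with shGFP. It was 1.63-fold higher in shEZH2 than in shBMI1 cells (0.71 ± 0.11, adjusted p = 0.0258), and over shGFP it was at 0.53 (adjusted p = 0.0816). The EHF call was lost with only the 4 arrays compared (adjusted p = 0.0883) and without any 1 of them (0.0514 to 0.193). The 53 genes had a median of -0.01 between shEZH2 and shBMI1, with 26 positive and 27 negative values, against 0.19 over the 36 members. They are a mixed set, as 8 of them are mesenchymal repressors and markers, with 2 positive and 6 negative values here (median -0.17). Between shBMI1 and shGFP the median of the 53 was 0.01, with 29 positive and 24 negative values, against -0.14 over the members. The 8 mesenchymal genes among them had 6 positive and 2 negative values there (median 0.11). VIM, the mesenchymal intermediate filament vimentin, read 9.17 and 8.91 with shEZH2, 9.40 and 9.25 with shRING1B, 9.80 and 9.49 with shBMI1, and 9.26 and 9.02 with shGFP. Its shBMI1 arrays were the highest, at -0.61 ± 0.15 for shEZH2 minus shBMI1 (adjusted p = 0.105), and its 3 probe sets had the same sign. CDSN, a glycoprotein of the cornified desmosome, had a difference of 0.72 ± 0.43 (adjusted p = 0.491), and its dimmest probe set gave 0.11.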

How the data were processed

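RNA of 8 arrays in 4 hairpin groups of 2 was measured on whole-transcript arrays. The authors deposited 1 log2 value for each probe set and array. RMA, named with limma in the submitters' processing notes, corrects background, brings arrays to one distribution by quantiles and summarises probes. It hides a general shift of expression and understates differences of dim genes. For tool versions and the build, the entry is: not given in the sources used here. Of 53617 probe sets, 16098 had 1 symbol in the platform annotation, 0 several and 37519 none. Symbols were updated through RefSeq. The brightest probe set over all arrays stood for a gene (779 genes had several), which left 14884 genes.

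Group means were fitted to all 8 arrays with limma 3.58.1 in R 4.3.3 (4 residual degrees of freedom, empirical Bayes, no filter). The p-values are two-sided and Benjamini-Hochberg adjusted over all genes within a comparison, and an adjusted p under 0.05 is called. Errors are standard errors of the fit and intervals are unadjusted. An exact permutation of 2 against 2 arrays cannot go below p = 0.333, so none was used. The number of arrays limits the precision. The fit was tested on simulated data. Comparisons with shGFP share its 2 arrays.

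The members and lists were chosen with earlier results of these data known, so patterns of the whole list are not independent evidence. Genes named were the called members, those with the largest differences in the shEZH2, shBMI1 and shRING1B comparisons, the 2 brightest of each class, and called or largest other pathway genes. CLDN4, LLGL2, PARD3 and GRHL2 differences, and those of TJP3, DSP, CLDN1 and OCLN in comparisons between hairpins where they were not called, were picked after their values were seen. Promoters came from a RefSeq table (22 of 36 members matched) and no probe sequences were used. Alternatives were a replicate block, only the arrays compared, quantile normalization, median centring, leaving out the dimmest 30% of genes, the mean of probe sets, a trended robust variance, protein-coding genes alone, array weights and leaving out each array.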

Additional observations from a re-analysis of the deposited data

How the results depend on the processing

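Counts of called members depended on the settings as follows. For shEZH2 minus shBMI1 the 5 calls became 12 with a trended robust variance and 10 without the dimmest 30% of genes, and leaving out 1 array gave 0 to 3. For shEZH2 minus shGFP the 3 calls were 3 to 4 over the 9 alternatives that kept all arrays of the comparison and 0 when any of its arrays was left out. For shEZH2 minus shRING1B the 2 calls became 1 with the replicate number as a block, 0 with only the arrays compared, 5 with a trended robust variance, 5 without the dimmest 30% of genes and 4 among protein-coding genes, and leaving out 1 array gave 0. For shRING1B minus shGFP the count of 0 became 2 with a trended robust variance, and for shRING1B minus shBMI1 it became 1 among protein-coding genes, with a trended robust variance and without the dimmest 30% of genes. For shBMI1 minus shGFP it was 0 in every alternative run. Leaving out 1 array gave 0 for these 3 comparisons. Of the differences printed for members, those of PARD3 and GRHL2 (shEZH2 minus shBMI1), OVOL1 (shRING1B minus shGFP, -0.02 with the mean of its probe sets) and PARD6B (shEZH2 minus shRING1B, near 0) changed sign in an alternative, and no called member did in a comparison where it was called. Small differences that are not printed changed sign as well in every comparison, so counts of positive and negative members depend on the settings. The cause of these changes was not tested, except that filters fit and adjust over fewer genes and left-out arrays leave fewer residual degrees of freedom.

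Over all genes, the 109 calls of shEZH2 minus shGFP were 39 with only the arrays compared, 648 with a trended robust variance, 409 without the dimmest 30% of genes, 174 with array weights, 169 among protein-coding genes and 0 to 19 without 1 array. The 145 calls of shEZH2 minus shBMI1 were 57, 640 and 445 under the first 3 of these, 320 among protein-coding genes and 2 to 35 without 1 array, and the 86 of shEZH2 minus shRING1B were 21, 555, 361, 183 and 0 to 14. Whether the replicate numbers of the titles pair the arrays is not settled. The correlation of same-numbered deviations was above 0.1 in 2 of 6 pairs of groups (0.000656 to 0.248, all 6 positive). It was highest for shBMI1 and shGFP. The first shBMI1 array correlated at 0.9959 with the first shGFP array over all genes, against 0.9945 with the second shBMI1 array. The main fit left such pairing out. As a block the replicate numbers moved the count of called members only for shEZH2 minus shRING1B, where CLDN7 had an adjusted p of 0.0513.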

Other observations

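The array also has probe sets for the hairpins of the miR-200 family and of miR-205, microRNAs known for keeping epithelial cells from the mesenchymal state by targeting ZEB1 and ZEB2. They were chosen after the files were read, and a hairpin probe set does not measure the mature microRNA. Mature sequences from RefSeq are shown with the seed (bases 2 to 8) in capitals, because the family falls into 2 seed groups, AAUACUG for miR-200b, miR-200c and miR-429 and AACACUG for miR-200a and miR-141.
miR-200b-3p: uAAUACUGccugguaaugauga
miR-200c-3p: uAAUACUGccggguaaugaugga
miR-429: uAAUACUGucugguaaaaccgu
miR-200a-3p: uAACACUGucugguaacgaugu
miR-141-3p: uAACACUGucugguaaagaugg
miR-205-5p: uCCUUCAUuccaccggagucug

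None of the 6 hairpin probe sets was called in any comparison. MIR205 read 8.09 and 7.78 with shEZH2, 8.10 and 8.11 with shRING1B, 8.23 and 8.42 with shBMI1, and 8.68 and 8.51 with shGFP. Its shGFP arrays were above all others, and shEZH2 minus shGFP was -0.65 ± 0.13 (adjusted p = 0.0747). MIR200C was at 0.59 ± 0.29 for shEZH2 minus shBMI1 (adjusted p = 0.391), MIR141 at 0.29, and MIR200A, MIR200B and MIR429 at -0.10, -0.08 and -0.02. MIR200C read 6.39 and 6.42 with shEZH2 and 5.27 and 6.37 with shBMI1, so its difference came mostly from the first shBMI1 array. MIR141 read 5.72 and 5.04 with shEZH2 and 4.66 and 5.52 with shBMI1, and these arrays overlapped.

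Of the mesenchymal repressors, which were among the other pathway genes, ZEB2 read 5.80 and 5.69 with shEZH2, 5.71 and 5.71 with shRING1B, 6.02 and 6.06 with shBMI1, and 5.57 and 5.45 with shGFP. The shBMI1 arrays were the highest, at 0.53 ± 0.09 over shGFP (adjusted p = 0.316). Of the 8 mesenchymal repressors and markers, 6 were higher and 2 lower with shBMI1 than with shGFP, where 53.4% of all genes were lower. SNAI2, the brightest of the repressors, read 12.36 and 12.34 with shBMI1, against 12.28 and 12.32 with shGFP. SNAI1 read 6.63 and 6.52 with shBMI1, against 6.76 and 6.68 with shGFP. JAM3, a junctional adhesion molecule, read 6.90 and 6.92 with shEZH2, 6.90 and 7.03 with shRING1B, 7.16 and 7.23 with shBMI1, and 6.58 and 6.49 with shGFP. As with ZEB2, its shBMI1 arrays were the highest, at 0.66 ± 0.09 over shGFP (adjusted p = 0.223). Of the 14 tight junction members, 9 were lower with shBMI1 than with shGFP. Of the 20 other tight junction genes measured, JAM3 among them, 14 were higher (median 0.07). The dim genes among these 20 are named above, and the contrast with the members was not tested. PATJ, a scaffold of the Crumbs complex, read 9.10 and 9.13 with shEZH2, against 8.69 and 8.67 with shBMI1, and missed the threshold (0.44, adjusted p = 0.0515). ZEB2, SNAI1, SNAI2, JAM3 and PATJ were picked after their values were seen.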
